A study of Mus musculus with 7 samples.

Results

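The 36 genes described here encode the pyruvate dehydrogenase complex with its kinases and phosphatases, the proteins that bring pyruvate into the mitochondrion or carboxylate it, the malic enzymes, and the enzymes of the citrate cycle. They were chosen by gene name: a probe belonged to the set when it was not a control and the array annotation gave it 1 of the 36 names. All 36 genes were on the array, among 37074 gene names in all, and they had 80 probes. Of these, 72 were kept because the scanner software marked the gland signal as well above background on all arrays of the wild-type group, the PRA transgenic group or both, and each of the 36 genes had at least 1 kept probe, among 22503 gene names that did. Where a gene had several kept probes, the brightest in the gland channel stood for it, and these 36 probes were well above background in both channels on all 7 arrays.

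Glands from 3 wild-type and 4 PRA transgenic mice of the FVB strain were compared, to ask what an excess of the A form of the progesterone receptor changes in the gland. PRA transgenic mice are bigenic. A CMV promoter, which is not specific to the mammary gland, drives GAL-4 in one transgene (CMV-GAL-4), and GAL-4 switches on the other, which carries PR-A behind GAL-4-binding sites (UAS-PR-A). All 7 mice were nulliparous, 20 to 25 weeks old and in diestrus, and a single abdominal gland without its lymph nodes was taken from each, so that 1 array stands for 1 animal. Gland RNA was labeled with Cy5 and hybridized with Cy3-labeled reference RNA pooled from mouse cell lines, and the dyes were not swapped on any array. Each value below is the log2 ratio of gland to reference, in which 0 is the level of the reference and 1 is a doubling, and each log2 fold change is the mean of the PRA transgenic arrays minus the mean of the wild-type arrays.

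The slide was shared, but its row 1 held the wild-type glands and its row 2 the PRA transgenic glands, so an effect of the row and one of genotype cannot be told apart. Between 62.6% and 66.1% of probes in wild-type and between 56.6% and 60.2% in PRA transgenic arrays were well above background in Cy5. White adipocyte markers had a mean log2 ratio between 5.37 and 6.09 over the arrays, and the luminal and basal epithelial markers had means between 2.33 and 3.02. The mean of the skeletal muscle markers, a list of 15 genes that were all on the array with 13 kept, split the arrays regardless of genotype. This mean log2 ratio was 2.49 and 3.58 in wild-type replicates 1 and 3 and 3.33 in PRA transgenic replicate 4. It was between -0.55 and -0.34 on the remaining 4 arrays. Taken singly, Mb and Casq1 did not have those replicates as their highest arrays, while the other markers did. Ckm, the creatine kinase of muscle, was well above background on only 3 arrays. T cell markers were highest in wild-type replicate 1, with a mean of 1.85 against -0.58 to 0.16 on the remaining arrays.

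Pyruvate, the end product of glycolysis, crosses the inner mitochondrial membrane through a carrier and is then either oxidized to acetyl-CoA by the pyruvate dehydrogenase complex or carboxylated to oxaloacetate. Kinases switch the complex off by phosphorylating its E1 alpha subunit and phosphatases switch it on again. In a tissue rich in adipocytes such as the mammary fat pad, citrate formed from acetyl-CoA and oxaloacetate also leaves the mitochondrion as the carbon source of fatty acids, for which cytosolic malic enzyme supplies NADPH.

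Pdhb, the beta subunit of E1, was measured by 3 probes, and Pdk4, the kinase that fasting and fat oxidation induce, by a single one. The first 30 bases of each of these 60-base probes are shown because the probes of Pdhb lie apart in the gene and gave different levels. They are written 5′ to 3′ as the array files hold them, on the minus strand of mm9, with no capitals because no part is singled out.
Pdhb A_66_P103403, chr14:8997650-8997679: taacactacactttgttctcttctgaaata
Pdhb A_55_P1953972, chr14:8998578-8998607: gaatgcccccacagaaggtaacttatatgt
Pdhb A_55_P1969775, chr14:9003635-9003664: gtgcagctatggtatgtaatatttatggag
Pdk4 A_51_P350453, chr6:5433471-5433500: tatgaacccatgggagactttaaactcttg

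Promoter windows of Dlat, which had the largest log2 fold change among the subunits of the complex, and Pdk4, which had the lowest of all members, are given from RefSeq on GRCm38.p6, both on the minus strand. Each is the 250 bases before the start site, written 5′ to 3′, with capitals marking the motifs found.
Dlat, chr9:50659781-50660030: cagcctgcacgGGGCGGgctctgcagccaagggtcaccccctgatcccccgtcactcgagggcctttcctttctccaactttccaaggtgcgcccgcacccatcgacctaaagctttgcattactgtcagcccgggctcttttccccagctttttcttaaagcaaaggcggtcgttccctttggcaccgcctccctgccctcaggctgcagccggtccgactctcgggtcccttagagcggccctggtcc
Pdk4, chr6:5496279-5496528: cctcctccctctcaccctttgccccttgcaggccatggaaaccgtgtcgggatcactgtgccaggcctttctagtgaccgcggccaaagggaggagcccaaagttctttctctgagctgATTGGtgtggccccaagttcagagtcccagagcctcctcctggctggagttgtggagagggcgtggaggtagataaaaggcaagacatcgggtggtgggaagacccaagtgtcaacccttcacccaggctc

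The motifs searched on both strands were CCAAT (a site common to many promoters), GGGCGG (the GC box), CACGTG (the E-box), TGTTCT (the core of steroid receptor sites), TCAAGGTCA (the element of estrogen-related receptors) and TGTTTAC (bound by FOXO factors), and no match overlapped another in these windows. The Dlat window held 1 GGGCGG, beginning 239 bases before the start site, and the Pdk4 window held 1 CCAAT, on the other strand, beginning 131 bases before it. A window was at hand for 32 of the 36 members, the exceptions being Sdhc, Me2, Idh3a and Pdp1. CCAAT lay in 19 of the 32 (33.8% of 32851 windows of all genes), GGGCGG in 21 (32.7% of all windows), CACGTG in 3 (6.02%), TGTTCT in 2 (16.1%), those of Aco1 and Suclg1, and TCAAGGTCA and TGTTTAC in none (0.387% and 3.17%). These matches describe letters in the windows and say nothing about binding in the gland.

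Across the 36 genes, each taken by its brightest probe, Pdk4 was the only member that passed an unadjusted p under 0.05 or whose genotypes did not overlap. No member passed after adjustment over all 34288 kept probes. At an adjusted p under 0.05 limma called 0 members, against 0.0117% of all kept probes, and the lowest adjusted p among members was 0.379. At an unadjusted p under 0.05 it called 0 members higher, against 3.6% of all gene names, and 1 lower, against 4.35%. The genotypes separated fully, with PRA transgenic arrays above, for 0 members, against 4.59% of gene names, and with PRA transgenic arrays below for 1 member, against 4.5%. In direction, 23 members were higher and 13 lower in PRA transgenic glands, with a median log2 fold change of 0.09, while 52.7% of all gene names were higher, with a median of 0.01. Single arrays moved the median of the members: it was 0.02 with 20 members higher without PRA transgenic replicate 1, 0.02 with 21 higher without replicate 3 and 0.23 with 29 higher without replicate 4. The RNA is that of whole glands, in which a smaller number of cells of a type and less RNA per cell cannot be told apart.

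**Figure D1:**
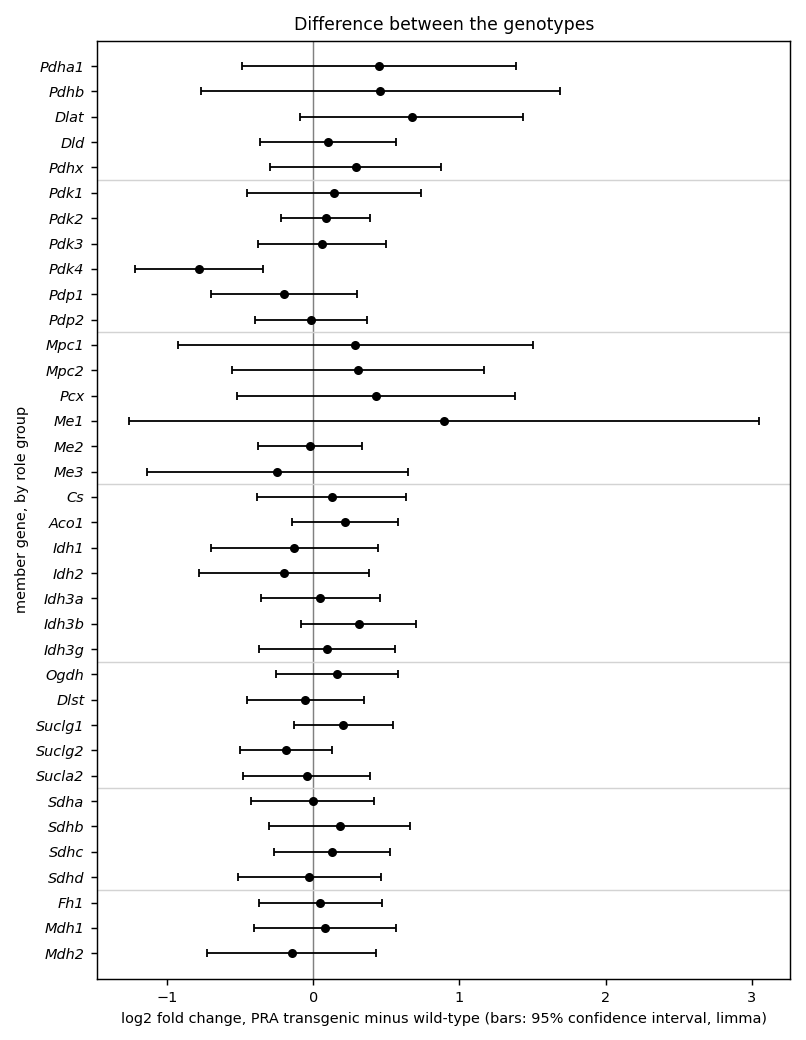
Log2 fold change of the brightest probe of each of the 36 member genes, PRA transgenic (n = 4) minus wild-type (n = 3), on the x axis, with genes on the y axis in their role groups and bars for the 95% confidence interval from limma. The interval of Pdk4 lies wholly below 0, those of all other genes include 0, and that of Me1 is the widest.

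The 5 subunits of the pyruvate dehydrogenase complex all had positive log2 fold changes, with a median of 0.45, and none passed the test. Dlat, the E2 acetyltransferase at the core of the complex, had log2 ratios of 1.78, 1.26 and 1.76 in wild-type replicates 1 to 3 and of 2.25, 2.40, 2.92 and 1.52 in PRA transgenic replicates 1 to 4. PRA transgenic replicates 1 to 3 were above every wild-type array and replicate 4 lay among them. The log2 fold change of Dlat was 0.67 (standard error 0.32, limma adjusted p = 0.600). Dld, the E3 dehydrogenase that the complex shares with other 2-oxo acid dehydrogenases, had the lowest log2 fold change of the group, 0.10, with log2 ratios from 0.64 to 0.72 in wild-type and from 0.33 to 1.09 in PRA transgenic glands. Pdha1, the alpha subunit of E1, and Pdhx, which binds E3 to the core, were added after their values were seen. Pdha1 had log2 ratios of 1.28, 0.67 and 1.29 in wild-type and of 1.83, 1.62, 2.18 and 0.50 in PRA transgenic replicates 1 to 4, and Pdhx had 1.24, 1.05 and 1.33 against 1.73, 1.58, 1.84 and 0.85. For both genes PRA transgenic replicate 4 was the lowest array, and the log2 fold changes of 0.45 and 0.29 did not pass the test (limma adjusted p = 0.787 and 0.778).

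The 3 probes of Pdhb all had positive log2 fold changes and none passed the test after adjustment. The brightest, A_55_P1953972, had log2 ratios of 0.94, 0.56 and 1.20 in wild-type and of 1.70, 1.47, 2.31 and -0.06 in PRA transgenic replicates 1 to 4. The range over the arrays was the widest within the complex, with both ends in PRA transgenic glands, and the log2 fold change was 0.46 (standard error 0.52, limma adjusted p = 0.843). A_66_P103403, the nearer of the other probes, followed it, with 0.96, 0.91 and 1.17 in wild-type and 1.98, 1.90, 2.43 and 0.29 in PRA transgenic glands and a log2 fold change of 0.64 (standard error 0.47, limma adjusted p = 0.743). On both probes 3 PRA transgenic arrays were above every wild-type array and replicate 4 was below every one.

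The third Pdhb probe, A_55_P1969775, lies farther off. It was below the reference on all 7 arrays, with log2 ratios of -0.90, -0.89 and -0.71 in wild-type and of -0.09, -0.25, -0.26 and -0.69 in PRA transgenic glands. The genotypes did not overlap, although PRA transgenic replicate 4 and wild-type replicate 3 were close. Its log2 fold change of 0.51 (standard error 0.17) had an unadjusted p of 0.0169 and an adjusted p of 0.462 from limma.

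**Figure D2:**
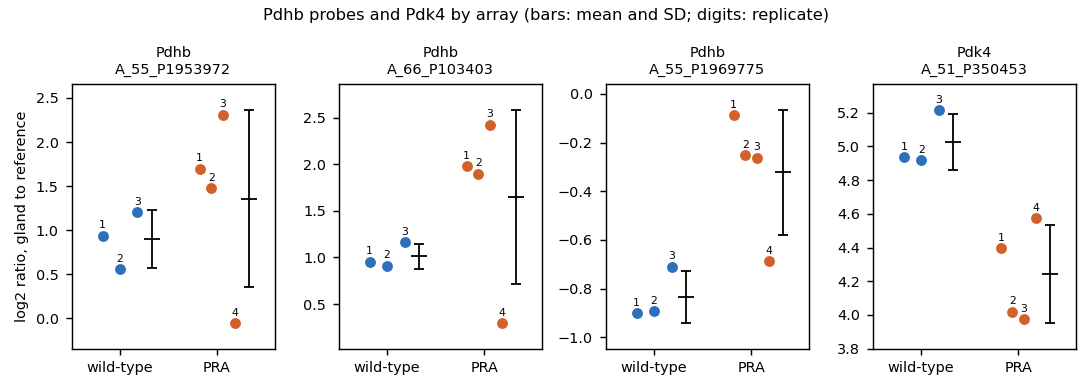
Log2 ratio of gland to reference (y axis, a separate scale in each panel) for the 3 probes of Pdhb and the probe of Pdk4 in wild-type (blue, n = 3) and PRA transgenic glands (orange, n = 4), with a point and replicate digit for each array and bars for the mean and SD. PRA transgenic replicate 4 is the lowest array on the 2 brighter Pdhb probes, at -0.06 and 0.29, and the PRA transgenic arrays lie wholly below the wild-type arrays for Pdk4.

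Among the kinases and phosphatases that set the activity of the complex, 3 of 6 had a positive and 3 a negative log2 fold change, with a median of 0.02. Pdk4 had log2 ratios of 4.94, 4.92 and 5.22 in wild-type and of 4.40, 4.02, 3.98 and 4.57 in PRA transgenic replicates 1 to 4. Every PRA transgenic array, replicate 4 included, was below every wild-type array. The log2 fold change was -0.78 (standard error 0.19), that is 1.72-fold lower, with an unadjusted p of 0.00382 and an adjusted p of 0.379 from limma. In Cy5 alone, without the reference, the log2 fold change was -0.81.

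Pdk1, the kinase that hypoxia induces, had the highest log2 fold change of this group, 0.14 (standard error 0.25, limma adjusted p = 0.913). It was below the reference on all 7 arrays, with log2 ratios from -2.61 to -2.06 in wild-type and from -2.70 to -1.84 in PRA transgenic glands, and the genotypes overlapped. The kinases Pdk2 and Pdk3 and the phosphatases Pdp1 and Pdp2 had log2 fold changes between -0.20 and 0.09.

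In the group of pyruvate entry, carboxylating and malic enzymes, the range over the arrays ran from 0.41 (Me2) to 3.95 (Me1). Me1, the cytosolic malic enzyme, had log2 ratios of 3.65, 2.23 and 3.56 in wild-type and of 4.48, 4.68, 5.47 and 1.53 in PRA transgenic replicates 1 to 4. The range over the arrays, 3.95 on the log2 scale, was the widest of all members, and both ends of it were PRA transgenic arrays. The log2 fold change was 0.89 (95% confidence interval -1.26 to 3.05, limma adjusted p = 0.822). Me3, a mitochondrial malic enzyme, ran the other way, with -0.18, 0.75 and 0.70 in wild-type and 0.12, -0.02, -0.42 and 1.02 in PRA transgenic glands, where replicate 4 was the highest array. Its log2 fold change was -0.25 (standard error 0.38, limma adjusted p = 0.894).

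Pcx, the carboxylase that makes oxaloacetate from pyruvate, and Mpc1 and Mpc2, the subunits of the pyruvate carrier, were added after their values were seen. Mpc1 had log2 ratios of 3.10, 2.47 and 3.30 in wild-type and of 3.52, 3.50, 4.10 and 1.86 in PRA transgenic replicates 1 to 4. Pcx had 4.33, 3.55 and 4.11 against 4.91, 4.48, 4.92 and 3.38. For Mpc1, Mpc2 and Pcx alike, PRA transgenic replicates 1 to 3 were above every wild-type array and replicate 4 was below every one, and the log2 fold changes over all arrays were 0.29, 0.31 and 0.43.

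From citrate to 2-oxoglutarate, 5 of 7 genes had a positive log2 fold change and the median was 0.09. Idh3b, a subunit of the NAD-dependent isocitrate dehydrogenase, had the highest, 0.31 (standard error 0.17, limma adjusted p = 0.639), with log2 ratios of 0.68, 0.40 and 0.85 in wild-type and of 0.96, 1.03, 1.15 and 0.67 in PRA transgenic glands. Idh2, the mitochondrial NADP-dependent enzyme, had the lowest, -0.20 (standard error 0.25, limma adjusted p = 0.860), and also the widest range of the group. Its highest and lowest arrays were both wild-type, 0.95 in replicate 2 and -0.15 in replicate 1, and the PRA transgenic arrays lay between, from 0.04 to 0.27. Cs, which condenses acetyl-CoA with oxaloacetate, Aco1, Idh1, Idh3a and Idh3g had log2 fold changes between -0.13 and 0.21.

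From 2-oxoglutarate to succinate, 2 of 5 genes had a positive log2 fold change and the median was -0.05. Suclg1, the alpha subunit shared by both succinyl-CoA synthetases, had the highest, 0.21, and Suclg2, the beta subunit of the GTP-forming enzyme, the lowest, -0.19 (limma adjusted p = 0.727 and 0.737). The other kept probes of Suclg2 had positive log2 fold changes, 0.42 and 0.29. Sucla2, the beta subunit of the ATP-forming enzyme, had the widest range, from 1.26 in PRA transgenic replicate 4 to 1.94 in wild-type replicate 3, and a log2 fold change of -0.05. The subunits of the 2-oxoglutarate dehydrogenase complex, Ogdh and Dlst, were at 0.16 and -0.05.

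The 4 subunits of succinate dehydrogenase, which is also complex II of the respiratory chain, had log2 fold changes with a median of 0.06, and 2 of the 4 were positive. Sdhb, the iron-sulfur subunit, had the highest log2 fold change, 0.18 (standard error 0.21, limma adjusted p = 0.841). Sdhd, a membrane anchor, had the lowest, -0.03, and the widest range, from 0.55 to 0.61 in wild-type and from 0.17 to 0.95 in PRA transgenic glands. In the last steps, Mdh1, the cytosolic malate dehydrogenase, had the highest log2 fold change, 0.08, and Mdh2, the mitochondrial one, the lowest, -0.15. Mdh2 also varied most, with 0.73, 1.12 and 0.93 in wild-type and 1.24, 0.56, 1.02 and 0.30 in PRA transgenic glands, so that the genotypes overlapped throughout.

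The same arrays were high or low for many of the members. PRA transgenic replicate 4 was the lowest of the 7 arrays for 23 of the 36 members, against 16.2% of all gene names, and PRA transgenic replicates 3 and 1 were the highest for 14 and 11, against 13.6% and 18.6%. Over the 5 subunits of the complex, the median log2 ratio was 1.24, 0.67 and 1.29 in wild-type and 1.73, 1.58, 2.18 and 0.50 in PRA transgenic replicates 1 to 4. Wild-type replicate 2 was the lowest of its group, as PRA transgenic replicate 4 was of the other, and the 6 genes of pyruvate entry and the malic enzymes had their lowest medians on the same arrays, 1.98 and 1.52.

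**Figure D3:**
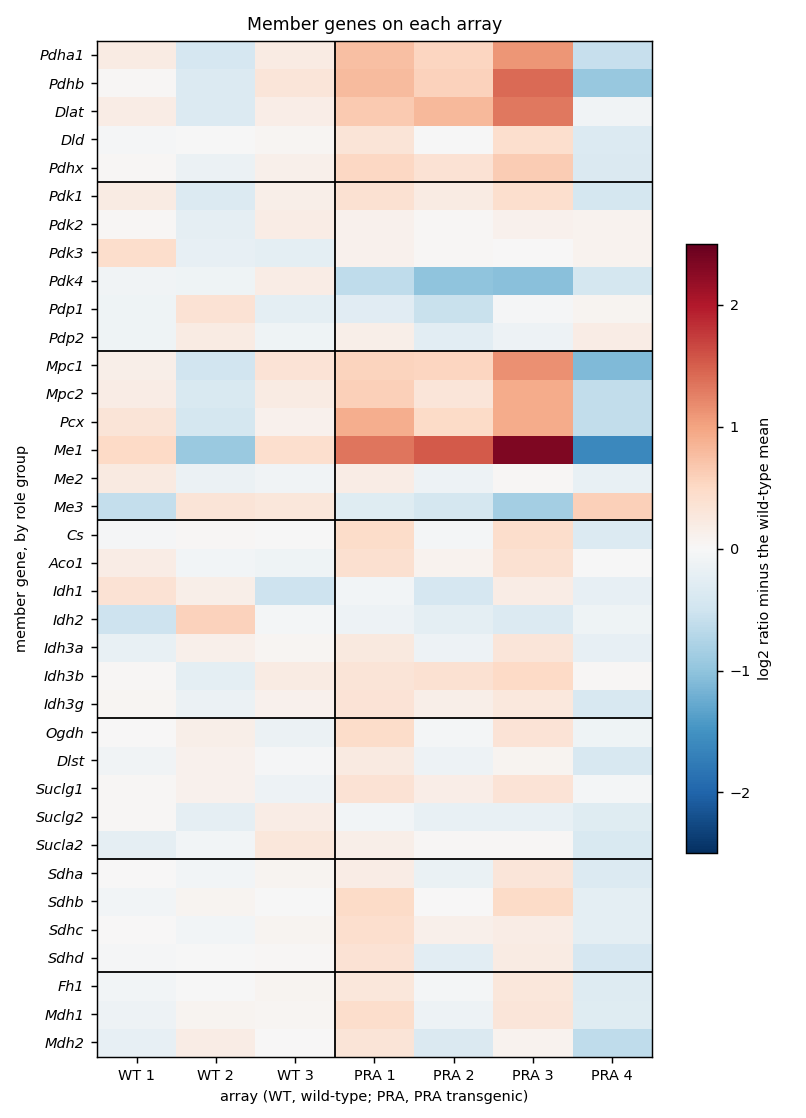
Log2 ratio of each member gene on each array minus the mean of the 3 wild-type arrays (color), with arrays on the x axis and genes on the y axis in their role groups, divided by black lines. Pdha1, Pdhb, Dlat, Pdhx, Mpc1, Mpc2, Pcx and Me1 are above the wild-type mean in PRA transgenic replicates 1 to 3 and below it in replicate 4, while Pdk4 is below it in all 4.

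When PRA transgenic replicate 4 was left out, 10 of the 36 members had an unadjusted p under 0.05, 9 higher and 1 lower, against 5.89% and 5.41% of all gene names, and 0 passed after adjustment, the lowest adjusted p being 0.234. The 9 were Pdha1, Pdhb, Dlat and Pdhx of the complex, Mpc1, Mpc2, Pcx, Me1 and Idh3b, with log2 fold changes from 0.40 for Idh3b to 1.73 for Me1, and the lower gene was Pdk4, at -0.89. The remaining PRA transgenic arrays were then above every wild-type array for 13 members and below for 1, against 10.5% and 8.36% of gene names. The array was left out after its values were known, so that this is a description.

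Muscle markers were high in PRA transgenic replicate 4, but also in wild-type replicates 1 and 3. Without these 3 arrays, which leaves 1 wild-type array whose spread is taken from the others, 13 members had an unadjusted p under 0.05, 10 higher and 3 lower, against 4.11% and 5.53% of gene names, and 0 passed after adjustment (lowest adjusted p = 0.419). With the muscle level as a covariate, 1 member had an unadjusted p under 0.05, Pdk4, at -0.67, and the median of the members was 0.01. The part of muscle RNA in the results was not tested further.

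The genes of fatty acid synthesis, which use the citrate and NADPH that several members supply, were set beside them after their values were seen. Their mean log2 ratio (Fasn, Acaca, Acly, Scd1, Elovl6, Thrsp, Srebf1 and Mlxipl) was 4.39, 3.44 and 4.15 in wild-type and 5.00, 4.86, 5.29 and 3.01 in PRA transgenic replicates 1 to 4. As for Me1 and the median of the complex, the highest array was PRA transgenic replicate 3, the lowest PRA transgenic replicate 4 and the lowest wild-type array replicate 2. Taken singly, Fasn, Acaca, Acly and Elovl6 had these same highest and lowest arrays, while Scd1, Thrsp, Srebf1 and Mlxipl did not. Acly, which splits exported citrate, spanned 0.83 to 5.64, both in PRA transgenic glands. The mean of the macrophage markers was highest in PRA transgenic replicate 4, at 3.35 against 2.47 to 2.87 on the other arrays. Csf1r, Cd68 and Adgre1 were highest there, Adgre1 nearly level with wild-type replicate 2. Mrc1 and Cd163 were highest in PRA transgenic replicates 2 and 1. The mean of the brown adipocyte markers was lowest in wild-type replicate 2 and PRA transgenic replicate 4, at 3.30 and 3.54 against 3.93 to 4.43. Ucp1, Cidea, Elovl3, Cox7a1 and Otop1 were lowest on these arrays, while Dio2, Prdm16 and Cox8b were not. The part of cell makeup in these differences was not tested.

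**Figure D4:**
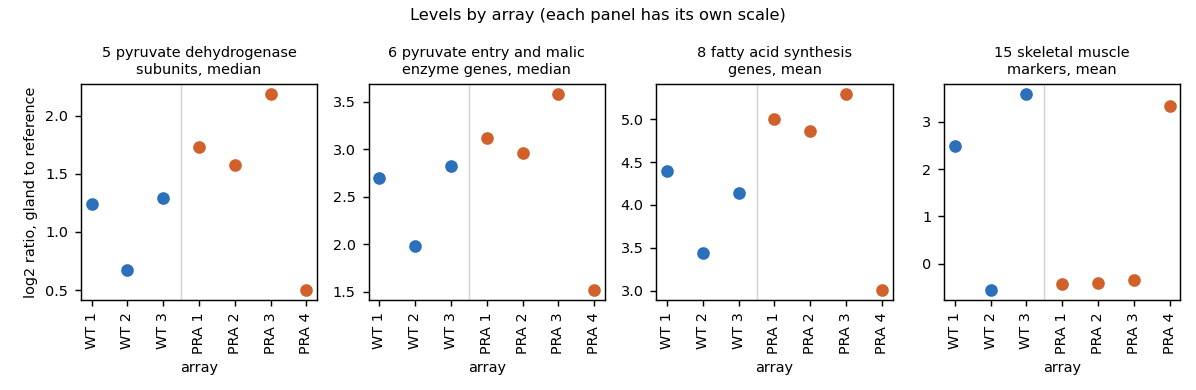
Log2 ratio of gland to reference on each array (y axis, a separate scale in each panel; blue, wild-type; orange, PRA transgenic) for the subunits of the pyruvate dehydrogenase complex and the pyruvate entry and malic enzyme genes (medians), the fatty acid synthesis genes and the skeletal muscle markers (means). In the first 3 panels PRA transgenic replicate 3 is the highest and replicate 4 the lowest array, while the muscle markers are high in wild-type replicates 1 and 3 and PRA transgenic replicate 4.

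Other genes of the pathway, taken from a list of 47 that covers isoenzymes, related 2-oxo acid dehydrogenases, lipoate attachment, assembly of succinate dehydrogenase, lactate and pyruvate supply, citrate export, amino acid exits and regulators, were kept in 44 cases. Of these, 27 were higher and 17 lower, with a median log2 fold change of 0.06, and 0 passed after adjustment (lowest limma adjusted p = 0.424). At an unadjusted p under 0.05 there were 2 higher and 2 lower of the 44, close to the 3.6% and 4.35% of all gene names. The higher genes were Slc25a10, a dicarboxylate carrier, at 0.60 and Ppargc1b, a coactivator of mitochondrial genes, at 0.54, and the lower were Gpt2, which converts pyruvate and alanine into each other, at -0.83 and Dbt, the E2 subunit of the branched-chain 2-oxo acid dehydrogenase, at -0.43. Gpt2 had log2 ratios of 2.13, 1.88 and 2.14 in wild-type and of 1.87, 0.87, 1.07 and 1.09 in PRA transgenic glands, and the genotypes did not overlap, although wild-type replicate 2 and PRA transgenic replicate 1 nearly met.

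Against the reference, 27 members were above it on all 7 arrays by their brightest probe, 3 were below it on all (Pdk1, Pdk3 and Me2) and 6 lay on both sides. Genes with a further kept probe numbered 24, with 36 such probes, of which 25 had the sign of the brightest and 11, in 6 genes, the opposite sign. Of the 36, 4 had an unadjusted p under 0.05, all higher, where 9.02% of all kept probes had one in either direction and 4.54% were higher with one, and 0 passed after adjustment. Besides the third probe of Pdhb, these belonged to Pdk3 (0.32), Pdp2 (0.64) and Suclg2 (0.42), which are named after their values were seen. On each of these probes every PRA transgenic array was above every wild-type array, as for 4.59% of gene names by their brightest probe. For Pdp2 and Suclg2 the brightest probe had the opposite sign, -0.01 and -0.19. Which transcripts the probes detect was not tested.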

How the data were processed

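For each of the 7 arrays the authors deposited a file of Agilent Feature Extraction 12.0. Its processed intensity values had the background subtracted and the dyes normalized by that software. A series table, also deposited, holds log2 ratios centered for each probe on the median of the arrays. The files place the probes on mm9. Control and outlier spots (98 to 198 an array) were dropped, the log2 of Cy5 over Cy3 was computed, and repeated spots of one probe were averaged. The filter asked for a Cy5 signal well above background throughout either genotype and kept 34288 of 56605 probes, leaving out 22317. Saturation affected 0 spots, and precision is limited by how few arrays there were. Genotypes were compared in limma 3.58.1 (lmFit, eBayes; R 4.3.3), adjusting p-values by Benjamini-Hochberg over all kept probes at a threshold of 0.05. The steps were tested on simulated data. Promoters came from RefSeq, GRCm38.p6.

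The members and all lists were chosen with earlier results of these data known. Named by rule were each Pdhb probe, Pdk4, and any member whose brightest probe had an unadjusted p under 0.05 or genotypes that do not overlap. In each role group the highest and lowest log2 fold change and the widest range were also named by rule. Alternatives were normexp (offset 50) with loess, quantile normalization, Cy5 alone scaled to each array's upper quartile, the series table, leaving the filter out or asking it of both channels, the median over probes, the methods' t-test, an intensity trend, array weights, the replicate block, the muscle level as a covariate, and arrays left out. A slide block could not be fitted with 1 slide. No column was left without a sample.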

Additional observations from a re-analysis of the deposited data

Results flagged for a closer look

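The skeletal muscle list was the only level that stood apart within a group among 55 groups of 4 arrays examined, where chance would give 2.75. In PRA transgenic glands its mean log2 ratio was 3.33 in replicate 4 and between -0.43 and -0.34 in the other 3, a gap of 0.976 of the whole range. No member gene met the same criterion.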

How the results depend on the processing

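Of 758 values that the 38 member probes took under the alternatives, 63, over 18 probes, had the opposite sign to the value reported, all of probes that did not pass the test, and 0 passed an adjusted p under 0.05. Pdk4 and the 3 Pdhb probes kept their sign under every alternative run. The causes of the changes were not tested. The brightest probe of each member was well above background in both channels on all 7 arrays, and the part of signal level in the changes was not tested.

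The count of members at an unadjusted p under 0.05, 1 as reported, was 3 with array weights, 9 with the replicate block, 13 without the 3 arrays with high muscle markers and between 1 and 10 when each array was left out in turn, the 10 without PRA transgenic replicate 4. Under these fits 11.8% (array weights), 9.83% (block), 9.93% (without the 3 arrays) and 12.3% (without PRA transgenic replicate 4) of all kept probes had such a p. The median log2 fold change of the members, 0.09, was 0.01 with the muscle covariate, 0.15 with array weights, 0.16 with the median over probes, 0.22 without the 3 arrays, 0.23 with the block and between 0.02 and 0.23 with each array left out. The replicate block leaves PRA transgenic replicate 4 without a partner. Deviations of same-numbered arrays had correlations of 0.0997, -0.297 and 0.036, and not every array matched its own number best. With so few shared numbers, these values cannot show whether the replicate numbers pair the samples. The count remained 1 under each other alternative for which it is given.

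The log2 fold changes that changed sign were, with the muscle level as a covariate, Dld -0.0044, Idh3a -0.038, Fh1 -0.039 and Mdh1 -0.030; with array weights, Pdk3 -0.039, Sucla2 0.036, Sdha 0.059 and Sdhd 0.019; with normexp and loess, Pdp2 0.018; and, with the median over probes, Pdp2 0.31, Idh1 0.17, Dlst 0.15, Suclg2 0.36 and Sdha 0.28. With quantile normalization they were Me2 0.014, Idh1 0.015, Sucla2 0.011 and Sdha 0.047, and in Cy5 alone Me2 0.010, Idh3g -0.13, Dlst 0.037 and Sdha 0.012. With the replicate block they were Me2 0.029, Dlst 0.059, Sucla2 0.066, Sdha 0.11, Sdhd 0.10 and Mdh2 0.012. Without the 3 arrays with high muscle markers they were Me2 0.18, Suclg2 0.066, Sucla2 0.14, Sdha 0.18 and Sdhd 0.10.

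With each array left out in turn, log2 fold changes that took both signs ranged from -0.0053 to 0.25 for Dld, -0.15 to 0.059 for Dlst, -0.032 to 0.18 for Fh1, -0.39 to 0.049 for Idh1, -0.46 to 0.086 for Idh2, -0.041 to 0.14 for Idh3a, -0.043 to 0.21 for Mdh1 and -0.30 to 0.012 for Mdh2. They ranged from -0.097 to 0.094 for Me2, -0.031 to 0.34 for Pdk1, -0.024 to 0.18 for Pdk2, -0.061 to 0.28 for Pdk3, -0.083 to 0.089 for Pdp2, -0.10 to 0.11 for Sdha, -0.16 to 0.10 for Sdhd and -0.15 to 0.10 for Sucla2. By the methods' t-test, 1 member, Pdk4, was past an unadjusted p of 0.01, 0 were also past 2-fold, and 0 passed after Benjamini-Hochberg adjustment.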
